A study of Mus musculus with 15 samples.

Results

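The genes of oxidative phosphorylation, encoded in the nucleus or in mitochondrial DNA, were followed in mouse embryonic stem cells (ESCs) and in 2-cell embryos in which Zscan4 was raised or lowered. Members were chosen by symbol: Nduf genes of the a, b, c, s and v series, Cox4 to Cox8, Uqcr, Sdha to Sdhd, Atp5, and the mitochondrial genes mt-Nd, mt-Co, mt-Cytb and mt-Atp, with 9 names that mark pseudogenes dropped. This gave 111 genes in all, of which 102 stood among the 51627 genes of the ESC table (89 nuclear, 13 mitochondrial) and 110 among the 53564 genes of the embryo table (97 nuclear, 13 mitochondrial). The symbols Cox5a, Ndufa9, Sdhd and Atp5f1 have no row in the ESC table and were not analysed there.

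Oxidative phosphorylation passes electrons from NADH and succinate through complexes I to IV to oxygen, and complex V uses the proton gradient so made to produce ATP. Most subunits are encoded in the nucleus and imported, while some membrane-embedded subunits of complexes I, III, IV and V are encoded in mitochondrial DNA, which is transcribed as long precursors by its own polymerase. Complex II is encoded wholly in the nucleus. Early embryos carry mitochondria and their transcripts over from the oocyte, and rely on pyruvate and this pathway for ATP.

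Expression was measured by RNA-Seq in 15 libraries. J1 mouse ESCs, grown without feeder cells and all given as passage PN+8, were either overexpressing Zscan4 (OE, 2 libraries) or wild type (control, 2 libraries). Embryos at the 2-cell stage had received Zscan4 RNAi (6 libraries) or were wild type (control, 5 libraries). Zscan4 genes encode zinc finger proteins and are transcribed at the 2-cell stage and in rare ESCs. The labels leave out how Zscan4 was overexpressed or silenced, whether the OE cells were 1 clone, the strain of the embryos and how many of them went into a library. They also do not say that replicates were separate cultures or embryo pools. The p-values therefore reflect just the spread among these libraries, and that spread may be technical.

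Values are reads per gene divided by a size factor per library, called normalised reads. The summed Zscan4 value was 19449 to 20005 in OE ESCs and 152 to 212 in control ESCs, and 13.9 to 383 in RNAi embryos and 345 to 1064 in control embryos, where the groups overlapped. Control 5, at 345, was the only control embryo library within the RNAi range, and the others had 676 to 1064. The ESC libraries held 21820093 to 26555027 assigned reads each, and the embryo libraries 695524 to 1432566. Of the marker genes, 7 of 10 2-cell markers were higher in OE ESCs, while in RNAi embryos 7 of 10 2-cell markers were lower and 4 of 10 oocyte markers were higher (limma, adjusted p under 0.05). The 10 2-cell markers include Zscan4c, Zscan4d and Zscan4f, of the manipulated family, so their counts and sums are not independent of the treatment. Summed fibroblast or feeder markers were 29205 to 46595 in OE and 33710 to 36759 in control ESCs (3 higher, 4 lower of 10), and blood markers 26.4 to 40.5 in OE and 35.6 to 40.002 in control ESCs. Some libraries stood apart. The OE libraries differed from each other far more than the controls did (a chi-square per degree of freedom of 128 between the OE libraries and 2.69 between the controls), and control 5 among the embryos had 1.75% of its reads in mitochondrial mRNAs, against 3.81% to 5.12% in the other 4 controls.

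In ESCs, Zscan4 overexpression went with higher levels of most mitochondrial mRNAs and with few calls among the nuclear genes. Of the 13 mitochondrial mRNAs, 8 rose and none fell (limma with a trend on log2(value + 1), Benjamini-Hochberg adjusted p under 0.05 over 20888 genes), where 23.2% of all genes tested passed in either direction and 11.7% were higher. The groups did not overlap for 10 of the 13, with 8 higher and 2 lower in OE, against 68.8% of all genes tested (34.2% higher, 34.6% lower). The median log2 fold change of the 13 was 1.52, against -0.02 over all genes tested. Of the 88 nuclear genes that passed the filter on low values, 2 (2.27%) were called, 1 in each direction, and the median log2 fold change of the 88 was 0.08. Their groups did not overlap for 21 higher in OE (23.9%) and 13 lower (14.8%). In these bulk samples, fewer cells of a type and less RNA per cell cannot be told apart.

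Complex I holds 7 mitochondrially encoded subunits, all of its membrane arm. mt-Nd1 had 77536 and 130539 normalised reads in OE ESCs and 22867 and 22753 in control ESCs (log2 fold change 2.14, SE 0.31, adjusted p = 0.0213, limma). mt-Nd2 had 37402 and 67093 in OE against 14883 and 15006 in control ESCs (1.74, SE 0.33, adjusted p = 0.0319, limma). mt-Nd4 had 59326 and 101216 in OE against 18668 and 18080 in control ESCs (2.08, SE 0.31, adjusted p = 0.0224, limma). For these 3 genes both OE libraries lay well above both controls, with OE 2 the higher. The short mRNAs mt-Nd3 and mt-Nd4l rose as well. mt-Nd3 had 3572 and 10662 in OE against 1127 and 816 in control ESCs (2.68, SE 0.57, adjusted p = 0.0398, limma), and mt-Nd4l had 1542 and 1112 in OE against 241 and 361 in control ESCs (2.15, SE 0.30, adjusted p = 0.0203, limma). The other two were not called. mt-Nd5 had 43121 and 51210 in OE ESCs, both below the 57444 and 58670 of the controls (log2 fold change -0.30, adjusted p = 0.319, limma). mt-Nd6, the only 1 of the 13 on the other strand, had 6513 in OE 1 and 17737 in OE 2, on either side of the 8917 and 9048 of the controls.

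mt-Cytb, the cytochrome b of complex III, had 95111 and 146389 normalised reads in OE ESCs and 30774 and 30607 in control ESCs (log2 fold change 1.94, SE 0.28, adjusted p = 0.0211, limma). In complex IV, 1 of 3 mitochondrial core subunits was called. mt-Co2 had 1982 and 3845 in OE against 963 and 956 in control ESCs (1.52, SE 0.36, adjusted p = 0.0473, limma). mt-Co1, the catalytic subunit and the most abundant of the 13, had 233051 and 263312 in OE ESCs, against 402017 and 394326 in control ESCs. Both OE libraries were lower, but the difference did not pass the threshold (log2 fold change -0.68, SE 0.25, adjusted p = 0.118, limma). It did pass with edgeR's quasi-likelihood test and with voom with quality weights, in which 8 mitochondrial mRNAs were higher and 1, mt-Co1, lower. mt-Co3 had 3926 and 3785 in OE ESCs, between the 2976 and 7651 of the controls. In complex V, mt-Atp8 had 6276 and 6702 in OE ESCs and 3021 and 3015 in control ESCs (1.10, SE 0.15, adjusted p = 0.0193, limma), while mt-Atp6 had 3614 and 7953, on either side of the 5614 and 4881 of the controls.

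**Figure D1:**
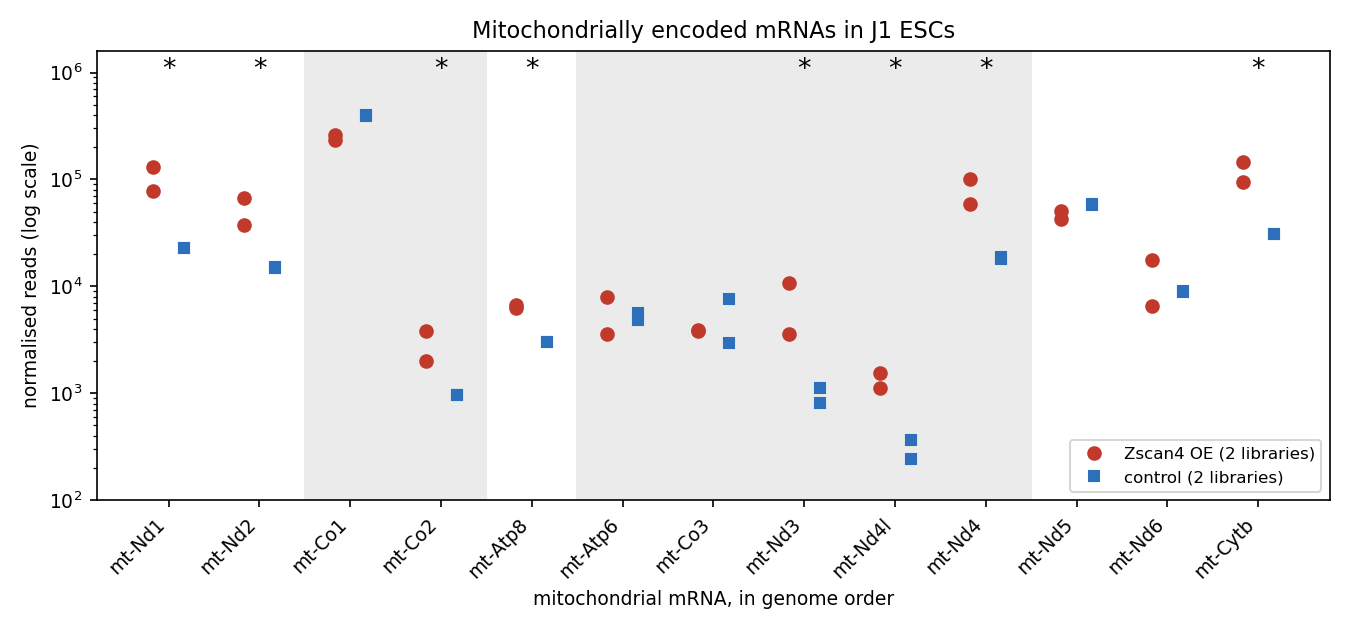
Normalised reads (log axis) of the 13 mitochondrial mRNAs in the 2 Zscan4 OE and 2 control ESC libraries, each point 1 library, in genome order. Asterisks mark the 8 that passed the threshold and grey bands the 7 that share over 50% of their 50-base stretches with a nuclear gene; mt-Co1 and mt-Nd5 are the 2 whose OE libraries both lie below the controls.

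Leaving out a library left a group with 1 library, so limma calls from such fits are not counted here. These fits were also run with the filter on low values applied afresh to the 3 libraries. Which genes passed turned on the library left out, over all genes as well as these 13. Whether a call held in such a fit is therefore not used to judge the 8 calls. Without control 1 and without control 2, the log2 fold change was 2.14 in both cases for mt-Nd1, and 1.74 and 1.75 for mt-Nd2. It was 2.92 and 2.45 for mt-Nd3, and 1.86 and 2.44 for mt-Nd4l. Without OE 2, it was 1.90 for mt-Nd3. For mt-Nd4l, it was 1.91 without OE 1 and 2.38 without OE 2. On all 4 libraries, edgeR called 9 and DESeq2 8 of the 13, where they called 5002 of 16335 and 5261 of 25826 genes. With quantile normalisation, limma did not call mt-Nd3 (adjusted p = 0.0611) or mt-Co2 (adjusted p = 0.0742). The call of mt-Co2 was also lost with a pseudocount of 0.5 (adjusted p = 0.0507, limma) and with no filter on low values (adjusted p = 0.0564, limma).

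As shares of all mitochondrial mRNA reads, which do not depend on scaling between libraries, mt-Co1 made up 40.7% and 32.4% in the OE libraries, against 70.6% and 69.6% in the controls. mt-Cytb made up 16.6% and 18.0% in OE, against 5.40% and 5.41% in control ESCs. mt-Nd1 made up 13.5% and 16.1% in OE, against 4.02% and 4.02% in control ESCs. The remaining large shares were those of mt-Nd4, at 10.4% and 12.5% in OE against 3.28% and 3.19% in control ESCs, and mt-Nd5, at 7.53% and 6.31% in OE against 10.1% and 10.4% in control ESCs. The share of library reads in all 13 mRNAs together moved less, at 2.37% and 3.12% in OE and 2.32% and 2.31% in control ESCs. All these shares leave out reads that were assigned to nuclear copies, so they depend on how shared reads were counted. Divided by exon length, mt-Co1 stood at 160635 normalised reads per kb in OE and 257716 in control ESCs, and mt-Nd1 at 108712 in OE and 23835 in control ESCs.

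**Figure D2:**
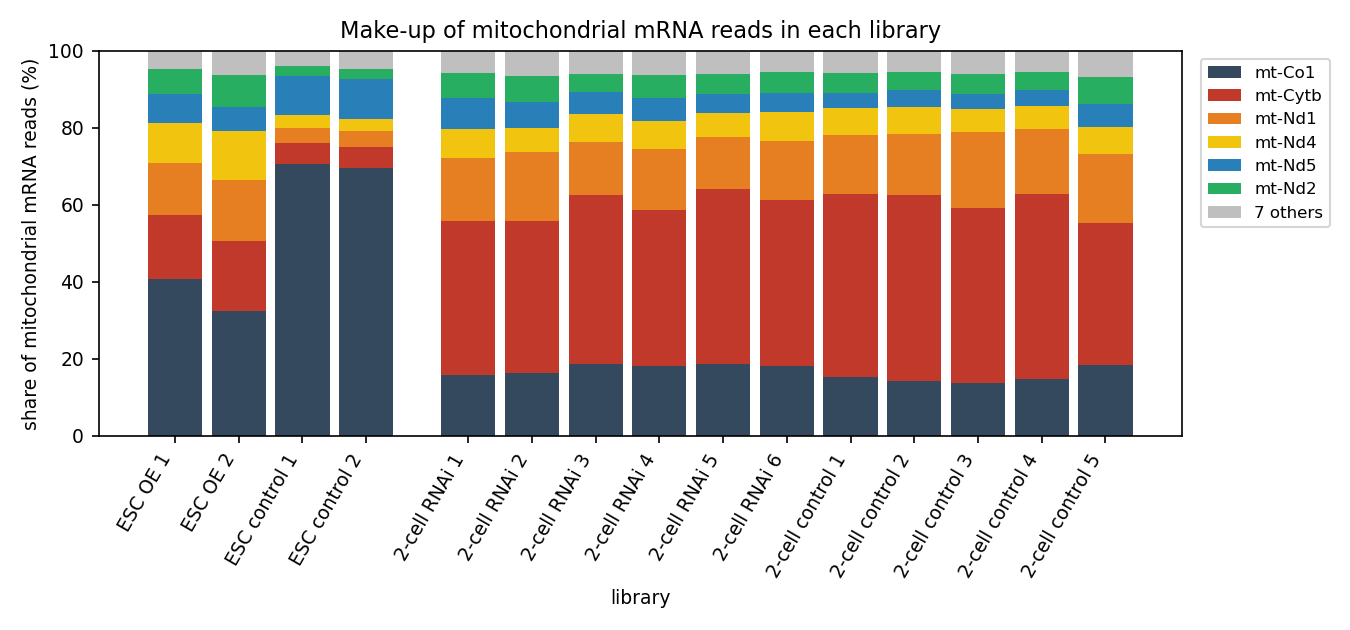
Share of mitochondrial mRNA reads (percent) of the 6 most abundant mRNAs and the sum of 7 others in each of the 15 libraries, as stacked bars. mt-Co1 holds 32.4% to 40.7% in the OE ESC libraries and 69.6% to 70.6% in the ESC controls, while in all 2-cell libraries mt-Cytb is the largest, at 36.9% to 48.3%.

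Copies of mitochondrial DNA in the nuclear genome limit several of these values, because a read from a copied stretch fits both places and how such reads were counted is not given in the sources used here. Of all 50-base stretches of each mRNA, the share that recurs in a nuclear gene was 100% for mt-Co2, 99.9% for mt-Co3, 99.5% for mt-Atp6, 98.8% for mt-Nd4l, 98.0% for mt-Nd3, 62.2% for mt-Nd4 and 51.1% for mt-Co1. It was 8.19% for mt-Nd2, 7.61% for mt-Nd5 and 0% for mt-Nd1, mt-Nd6, mt-Cytb and mt-Atp8. Of these 6, 4 were called higher (mt-Nd1, mt-Nd2, mt-Cytb and mt-Atp8). The search covered transcripts of annotated genes only, so 0% does not exclude a copy elsewhere in the nuclear genome. Of the nuclear members, 3 shared over 50% of their stretches with another gene. Ndufaf2 shared 64.1%, and the processed pseudogenes Ndufb4c and Cox6c2, which are members in the embryo table only, shared 100% with Ndufb4 and 52.7% with Cox6c.

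The copies themselves carried more reads than their mitochondrial partners in some cases. Gm28661, the copy of mt-Co2, had 92140 and 149364 normalised reads in OE ESCs and 52391 and 52567 in control ESCs. Gm28437, the copy of mt-Co3, had 85063 and 118405 in OE and 90782 and 86430 in control ESCs. With its copies added, mt-Co3 had 88990 and 122191 in OE ESCs and 93758 and 94081 in control ESCs, so the controls, which stood apart for mt-Co3 alone, lay close together in the sum. With copies added, mt-Co2 was 2.31-fold, mt-Atp6 2.38-fold, mt-Nd3 5.17-fold and mt-Nd4l 2.72-fold of the control mean in OE ESCs, and mt-Co1 0.640-fold.

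Overlaps within mitochondrial DNA add a further limit. The sequences of mt-Atp8 and mt-Nd4l are printed because each ends inside the next gene, so that a read from the shared bases belongs to both. Capitals mark the 43 bases of mt-Atp8 that are also the start of mt-Atp6, and the 7 bases of mt-Nd4l that are also the start of mt-Nd4 (GENCODE transcripts, GRCm38, plus strand).
mt-Atp8, chrM:7766-7969: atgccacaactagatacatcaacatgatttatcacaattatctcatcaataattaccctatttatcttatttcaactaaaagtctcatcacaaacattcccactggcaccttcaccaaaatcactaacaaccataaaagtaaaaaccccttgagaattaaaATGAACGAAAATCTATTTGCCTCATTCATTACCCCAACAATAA
mt-Nd4l, chrM:9877-10173: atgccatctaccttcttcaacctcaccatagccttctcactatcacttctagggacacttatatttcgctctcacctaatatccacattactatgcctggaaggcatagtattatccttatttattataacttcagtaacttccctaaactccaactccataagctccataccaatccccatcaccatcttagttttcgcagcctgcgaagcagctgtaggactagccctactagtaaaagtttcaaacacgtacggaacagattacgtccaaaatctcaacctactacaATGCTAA
The ribosomal RNAs come from the same genome. mt-Rnr2, the large ribosomal RNA, fell, with 3022 and 2469 in OE and 4595 and 4607 in control ESCs (log2 fold change -0.75, adjusted p = 0.0480, limma).

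The nuclear genes showed another pattern, in which the OE libraries lay on opposite sides of the controls. Of 88 nuclear genes, OE 1 was below both controls for 62 and above both for 21, while OE 2 was above both for 70 and below both for 13. OE 1 lay below and OE 2 above both controls for 44 genes (50%), against 7.47% of all genes tested, and OE 2 exceeded OE 1 for 84 of 88. The median log2 ratio to the control mean was -0.27 in OE 1 and 0.47 in OE 2, where it was -0.01 and -0.04 over all genes tested. Cox4i1, the common form of a complex IV core-binding subunit, is typical, with 10677 in OE 1 and 17742 in OE 2, against 13433 and 13362 in control ESCs.

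**Figure D3:**
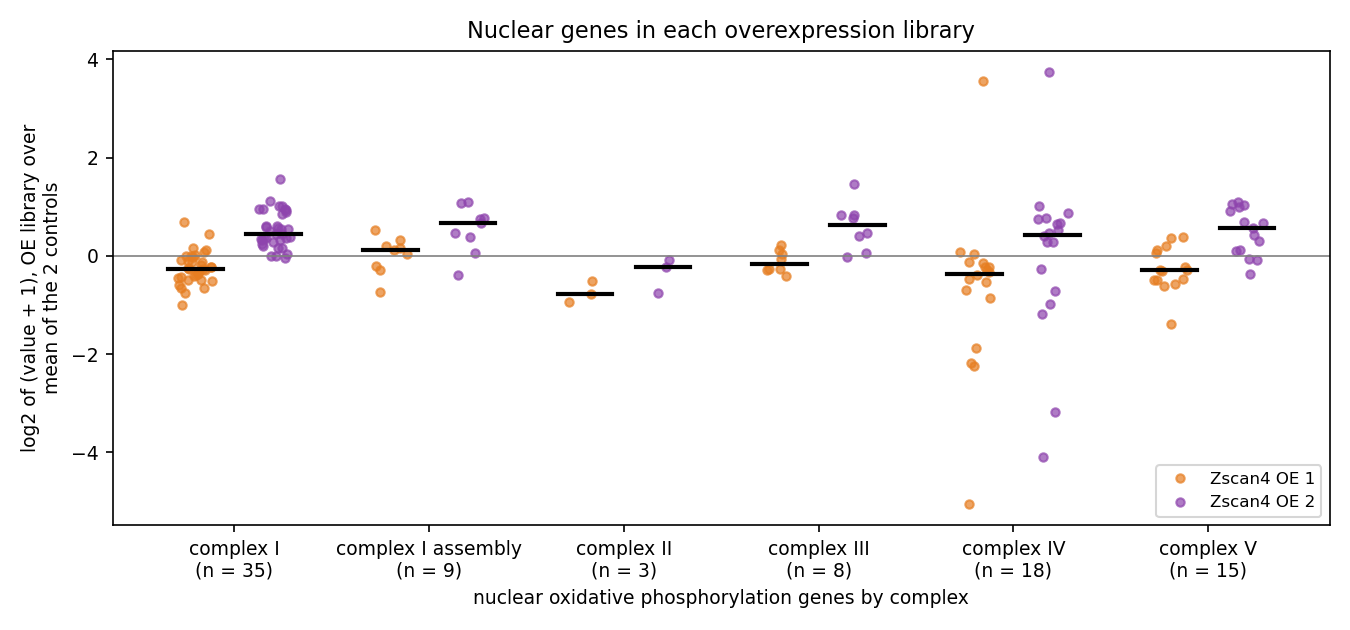
Log2 of (value + 1) in each OE library over the mean of the 2 controls, for the 88 nuclear genes by complex; each point is a gene and black bars are medians. OE 1 medians lie below 0 except for complex I assembly factors, and OE 2 medians lie above 0 except for complex II.

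Annotated exon length moved with this difference. It is the union of the exons of all annotated transcripts of a gene, and can exceed the length of the mRNA present. Over 11344 genes with a mean of at least 100 normalised reads, the median log2 ratio of OE 2 to OE 1 was 0.74 for genes with up to 1000 exon bases and -0.62 for those over 8000, while the ratio between the controls was -0.01 and 0.02. The nuclear members are short, with a median of 1675 exon bases against 4468 over all genes. Their own ratio was 0.88 for 19 members of up to 1000 bases, 0.86 for 33 of 1000 to 2000 and 0.60 for 21 of 2000 to 4000, where all genes of the same lengths had 0.74, 0.63 and 0.31. It was 0.67 for 9 members of 4000 to 8000 bases, where all genes of that length had -0.12, and -0.24 for the 1 member over 8000. The part of length or RNA quality in the result was not tested. Calls among the nuclear genes, as over all genes, turned on which library was left out. Such fits hold a group of 1 library, so their calls are not counted here.

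By complex, none of 35 complex I subunits was called by limma, with 1 at an unadjusted p under 0.05. This gene was Ndufa5, with 535 and 988 in OE and 343 and 319 in control ESCs (adjusted p = 0.0810, limma). None of 9 complex I assembly factors was called, with 2 at an unadjusted p under 0.05. Ndufaf4 had 547 and 639 in OE and 384 and 379 in control ESCs, and Ndufaf7 had 526 and 663 in OE and 848 and 896 in control ESCs. Atp5sl, which takes part in assembly of the complex I membrane arm and whose name places it with the ATP synthase genes, had 1039 and 1532 in OE and 968 and 952 in control ESCs. None of 8 complex III genes was called or reached an unadjusted p under 0.05, and Uqcrc1, a core protein, had 7929 and 12583 in OE and 9539 and 9447 in control ESCs.

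Complex II was the group in which both OE libraries lay below both controls for each of 3 measured subunits, where groups did not overlap in that direction for 34.6% of all genes. Sdha, the flavoprotein that oxidises succinate, had 4802 and 4005 in OE and 6850 and 6748 in control ESCs (log2 fold change -0.63, SE 0.17, adjusted p = 0.0657, limma). Sdhb, the iron-sulfur subunit, had 1382 and 2270 in OE and 2645 and 2686 in control ESCs. Sdhc, a membrane anchor, had 2662 and 4263 in OE and 4508 and 4552 in control ESCs. None passed the threshold in this fit, and only Sdha had an unadjusted p under 0.05. Sdha did pass with quantile normalisation and with voom with quality weights, but with no other alternative on all 4 libraries.

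Both nuclear calls in ESCs were paralogs of other complex IV genes. Ndufa4l2, the paralog of Ndufa4 that is induced by HIF1 under low oxygen, fell 22.8-fold. It had 56.5 and 110 normalised reads in OE ESCs and 1918 and 1878 in control ESCs (log2 fold change -4.57, SE 0.37, adjusted p = 0.0117, limma), at chr10:127514967-127517154 (mm10), where its exons overlap those of Shmt2. Cox7b2, a form of Cox7b known from testis, rose, with 21.9 and 25.0 in OE ESCs and 1.90 and 0 in control ESCs (adjusted p = 0.0282, limma). The controls held 2 reads of Cox7b2 together, so that the read ratio of 24.6 has a wide 95% interval (6.43 to 210, counting error only). Cox7b2 was not called by voom with quality weights. Fits with a library left out are not used to judge either call, since passing there turned on the library over all genes.

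The other paralog pairs of complex IV were set side by side. Ndufa4 itself had 2553 and 4578 in OE and 2413 and 2555 in control ESCs, and Cox7b had 2476 and 3693 in OE and 2995 and 3056 in control ESCs. For 4 forms known from particular tissues, Cox6b2, Cox4i2, Cox6a2 and Cox8c, both OE libraries lay below both controls, as for 34.6% of all genes tested, and none of the 4 passed the threshold. Cox6b2, the form known from testis, had 160 and 298 in OE and 622 and 561 in control ESCs (log2 fold change -1.43, SE 0.36, adjusted p = 0.0544, limma), and edgeR and DESeq2 did call it lower. Its partner Cox6b1 had 2370 and 4573 in OE and 2208 and 2285 in control ESCs. Cox4i2, the form known from lung, had 29.2 and 82.3 in OE and 164 and 106 in control ESCs. Cox6a2, the heart and muscle form, had 0.912 and 0 in OE and 12.4 and 3.74 in control ESCs, while Cox6a1 had 3973 and 8695 in OE and 5434 and 5591 in control ESCs.

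Cox7a2l, which helps join complexes III and IV into supercomplexes, had 922 and 1403 in OE and 1633 and 1723 in control ESCs (adjusted p = 0.178, limma). Cox7a1, the muscle form, had 73.8 and 155 in OE and 100.005 and 94.6 in control ESCs, and Cox7a2, the common form, had 669 and 1233 in OE and 750 and 723 in control ESCs. Neither was called. Cox8a had 4456 and 7800 in OE and 6484 and 6325 in control ESCs, Cox8c, known from testis, had 5.47 and 3.58 in OE and 7.62 and 11.2 in control ESCs, and Cox8b, the muscle form, had no read in any of the 4 libraries. In complex V, none of 15 genes was called or had an unadjusted p under 0.05. Atp5b, the catalytic beta subunit and the nuclear member with the most reads, had 55026 and 72886 in OE and 67943 and 67445 in control ESCs. Of 3 genes that encode the same mature c subunit, Atp5g1 had 3562 and 7872 in OE and 4169 and 4190 in control ESCs, Atp5g2 had 361 and 722 in OE and 341 and 354 in control ESCs, and Atp5g3 had 4491 and 6322 in OE and 4001 and 3826 in control ESCs.

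Set against each other within a library, mitochondrial and nuclear values no longer depend on scaling. The summed mitochondrial value was 2.36 and 2.23 times the summed nuclear value in OE ESCs, and 1.89 and 1.89 times in control ESCs, a difference of 0.28 on the log2 scale (1.20 ± 0.06 in OE and 0.92 ± 0.00 in control ESCs, SD, n = 2 each). Most of the control sum was mt-Co1. Without it, the log2 ratio was 0.54 ± 0.07 in OE ESCs and -0.82 ± 0.03 in control ESCs (SD, n = 2 each), a difference of 1.36. With the 6 mRNAs that share under 10% of their sequence with annotated nuclear genes, the difference was 1.29. The ratio was thus higher in both OE libraries than in both controls by each of these measures.

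Genes that serve the complexes were counted in the same fit. Of 59 assembly factors and electron carriers, 4 rose and 2 fell, among them Coa7, a complex IV assembly factor, with 633 and 792 in OE and 271 and 251 in control ESCs (log2 fold change 1.44, adjusted p = 0.0214, limma), and Nubpl, which helps place iron-sulfur clusters in complex I, with 233 and 262 in OE and 548 and 586 in control ESCs (-1.19, adjusted p = 0.0248, limma). Of 21 genes of mitochondrial DNA maintenance and transcription, 5 rose and 2 fell. Tfb2m, the factor that opens mitochondrial promoters, had 1025 and 848 in OE and 399 and 425 in control ESCs, and Rrm2b, a ribonucleotide reductase subunit, had 125 and 76.3 in OE and 400 and 425 in control ESCs. Of 23 genes of mitochondrial RNA processing, 3 rose and none fell. Fastkd5, which in human cells takes part in cutting precursors that no tRNA flanks, had 789 and 891 in OE and 129 and 155 in control ESCs (log2 fold change 2.56, adjusted p = 0.0119, limma).

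Of 17 regulators of mitochondrial biogenesis, 2 rose and 1 fell: Myc had 1289 and 1664 in OE and 62.9 and 49.6 in control ESCs, and the coactivator gene Ppargc1b had 50.1 and 64.4 in OE and 265 and 271 in control ESCs. Of 26 genes of the tricarboxylic acid cycle and pyruvate entry, 1 rose and 2 fell. Pdhx, a pyruvate dehydrogenase component, had 1306 and 1305 in OE and 685 and 585 in control ESCs, and Pdk4, a kinase that switches that enzyme off, had 119 and 59.6 in OE and 675 and 645 in control ESCs. Each list's share of calls is to be read against 23.2% of all genes tested.

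In 2-cell embryos the mitochondrial mRNAs showed no call, and the nuclear genes were called at a lower share than all genes tested. Of 90 nuclear genes that passed the filter on low values, 12 (13.3%) were called, 10 lower and 2 higher, against 18.2% of all 16417 genes tested (12.0% lower, 6.13% higher). Quantile normalisation, which moved the median log2 fold change of all genes to 0.14, called 7 lower and 4 higher. Over all genes it called 1609 lower and 1396 higher. The median log2 fold change of the 90 was -0.29, against -0.03 over all genes. Of 13 mitochondrial mRNAs, limma, edgeR and DESeq2 each called 0, with 0 at an unadjusted p under 0.05 in all 3. The 7 nuclear members that did not pass the filter were Ndufa11b, Ndufb4c, Ndufs6b, Cox7b2, Cox8b, Cox8c and Ndufa4l2.

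In complex I, 4 of 36 subunits were called, among them Ndufb10, Ndufs8 and Ndufa10. Ndufb10, an accessory subunit of the membrane arm, had 0 to 8.24 normalised reads in RNAi embryos (median 5.65) and 31.9, 78.2, 20.9, 58.5 and 8.80 in controls 1 to 5 (log2 fold change -2.73, SE 0.67, adjusted p = 0.00978, limma). The groups did not overlap, and control 5 was the lowest control. Ndufs8, an iron-sulfur core subunit, had 1.30 to 26.1 in RNAi embryos (median 8.37) and 22.6, 73.8, 39.0, 43.3 and 39.1 in controls (-2.11, SE 0.57, adjusted p = 0.0158, limma). Ndufa10, an accessory subunit, was the exception, with 41.7 to 164 in RNAi embryos (median 61.4) and 10.9, 22.9, 30.6, 44.5 and 30.3 in controls (1.37, SE 0.43, adjusted p = 0.0313, limma). Ndufs8 and Ndufa10 overlapped between the groups. Ndufab1, the mitochondrial acyl carrier protein and the complex I member with the most reads, had 102 to 208 in RNAi embryos (median 139) and 86.0 to 159 in controls and was not called.

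Among 8 complex I assembly factors, Ndufaf5, which modifies a core subunit during assembly, fell, with 0 to 17.2 in RNAi embryos (median 2.30) and 31.0, 20.7, 47.3, 21.1 and 11.7 in controls (log2 fold change -2.69, SE 0.70, adjusted p = 0.0133, limma). Ndufaf4 had 166 to 467 in RNAi embryos (median 290) and 144 to 203 in controls, with no call. In complex II, no subunit was called and the log2 fold changes of all 4 were above 0, from 0.40 to 0.95. Sdha had 9.29 to 139 in RNAi embryos (median 79.2) and 18.1 to 57.7 in controls.

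In complex III, 2 of 8 genes fell. Uqcrq, a small subunit beside cytochrome b, had 5.22 to 59.9 in RNAi embryos (median 25.1) and 92.2, 162, 163, 110 and 60.6 in controls (log2 fold change -2.23, SE 0.47, adjusted p = 0.00509, limma), with no overlap between the groups. Uqcrfs1, the Rieske iron-sulfur protein, had 5.21 to 46.9 in RNAi embryos (median 25.7) and 64.6, 78.2, 89.1, 80.8 and 28.3 in controls (-1.65, SE 0.53, adjusted p = 0.0348, limma). Only control 5 lay within the RNAi range. Uqcrh, the hinge protein, had 44.3 to 124 in RNAi embryos (median 50.5) and 70.4 to 117 in controls and was not called.

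In complex IV, 3 of 17 genes fell and 1 rose. Cox4i1 had 6.52 to 52.2 in RNAi embryos (median 31.9) and 94.8, 95.9, 127, 241 and 83.1 in controls (log2 fold change -2.14, SE 0.46, adjusted p = 0.00538, limma), with no overlap, and its exons overlap those of Emc8. Cox7c had 0.868 to 17.2 in RNAi embryos (median 6.96) and 36.1, 48.7, 84.9, 52.7 and 8.80 in controls (-2.60, SE 0.66, adjusted p = 0.0121, limma). Again control 5 was the one control inside the RNAi range. Cox7b had 19.7 to 84.8 in RNAi embryos (median 42.5) and 97.3, 157, 80.7, 52.7 and 182 in controls (-1.30, SE 0.40, adjusted p = 0.0309, limma). Cox7a2l rose, with 24.6 to 91.7 in RNAi embryos (median 45.6) and 24.3, 14.02, 20.9, 3.51 and 22.5 in controls (1.62, SE 0.49, adjusted p = 0.0259, limma). Here the lowest RNAi library, RNAi 2, lay just above the highest control.

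The paralogs of complex IV differed in level in the 2-cell embryo. Per kb of exon, the testis form Cox6b2 averaged 265 normalised reads in RNAi and 191 in control embryos, above Cox6b1 with 80.1 in RNAi and 123 in control embryos, whereas in ESCs Cox6b1 stood above Cox6b2. In normalised reads Cox6b2 had 232 to 433 in RNAi embryos (median 274) and 128 to 278 in controls, and Cox6b1 had 43.0 to 71.4 in RNAi embryos (median 55.6) and 71.3 to 98.8 in controls. Neither was called, at adjusted p = 0.235 and 0.152 (limma). Cox8a, the common form, had 610 to 1140 in RNAi embryos (median 767) and 455 to 724 in controls. Cox6a1 had 62.7 to 205 in RNAi embryos (median 88.6) and 72.3 to 252 in controls, and Cox6a2 had 4.51 to 17.4 in RNAi embryos (median 7.25) and 1.17 to 6.84 in controls. Cox7a2 had 60.4 to 151 in RNAi embryos (median 98.9) and 54.5 to 111 in controls. Ndufa4 had 71.2 to 408 in RNAi embryos (median 95.1) and 82.2 to 125 in controls. None of these passed the threshold. Cox4i2 and Cox7a1 stayed below 4 normalised reads in all RNAi libraries, and Cox8b had no read in any embryo library. Among the controls, Cox4i2 reached 38.6 in control 4, which stood far from the other controls.

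In complex V, 1 of 17 genes was called. Atp5g1, for the c subunit that forms the rotor ring, had 33.9 to 188 in RNAi embryos (median 88.3) and 259, 422, 530, 459 and 152 in controls (log2 fold change -1.95, SE 0.42, adjusted p = 0.00528, limma). Control 5 was the only control within the RNAi range. Atp5g3 for the same protein had 2.60 to 21.6 in RNAi embryos (median 11.2) and 21.8, 44.3, 51.5, 34.0 and 11.7 in controls (-1.52, SE 0.57, adjusted p = 0.0659, limma), and it passed in 4 of 18 alternatives, among them the one without control 5. Atp5g2 had 22.1 to 37.8 in RNAi embryos (median 25.2) and 13.3 to 43.0 in controls. Atp5b had 287 to 887 in RNAi embryos (median 484) and 373 to 610 in controls, and neither was called. Across complex V, 14 of 17 log2 fold changes were below 0, with a median of -0.55.

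**Figure D4:**
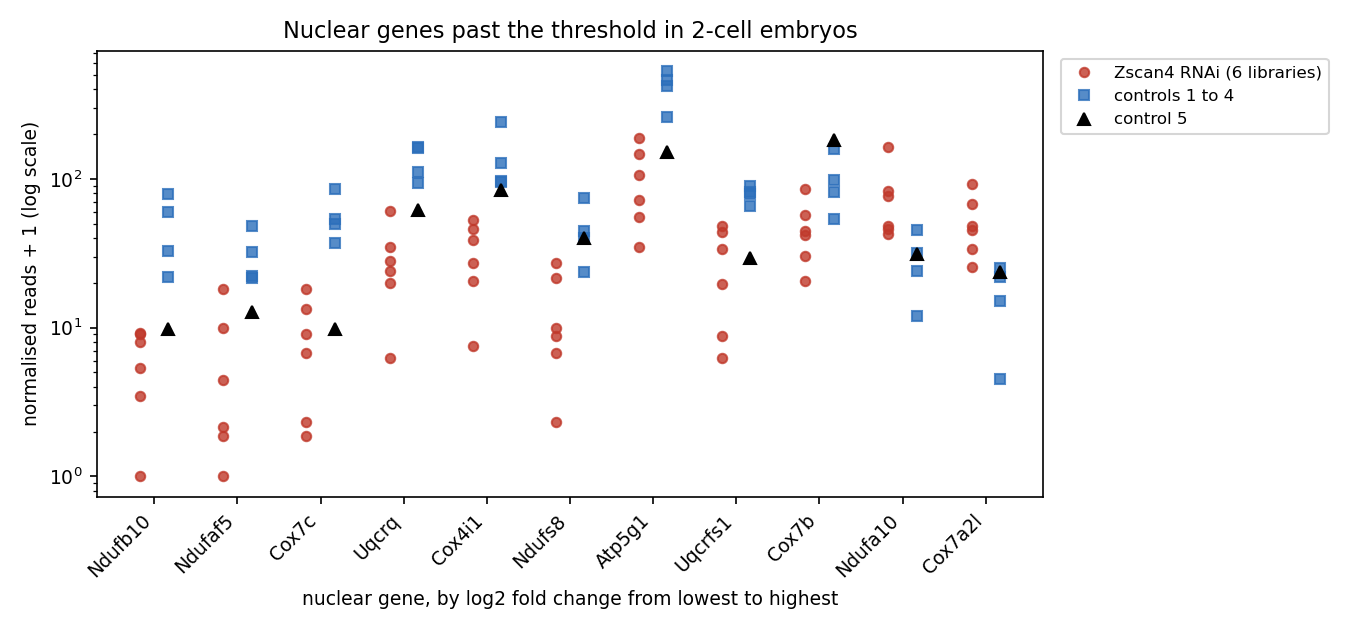
Normalised reads + 1 (log axis) of 11 of the 12 nuclear genes past the threshold in 2-cell embryos, each point 1 library, with 6 Zscan4 RNAi libraries left of 5 controls for each gene. For Ndufb10, Uqcrq, Cox4i1 and Cox7a2l the groups do not overlap, and control 5 (triangle) is the lowest control for most genes that fell.

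Of the 90 nuclear genes, the groups did not overlap and were lower for 3 (3.33%, against 4.28% of all genes tested) and higher for 1 (1.11%, against 3.05%), where 7.33% of all genes tested did not overlap in either direction. Among the 11 named by rule, 6 kept their call under every one of 18 alternatives: Ndufb10, Ndufaf5, Uqcrq, Cox4i1, Cox7c and Atp5g1. The calls of the other 5 were lost in some alternatives. Ndufs8 was lost without control 2 (adjusted p = 0.0543, limma). Cox7a2l was lost without RNAi 1, RNAi 4, control 2 or control 4 (adjusted p up to 0.0805, limma), and Ndufa10 without RNAi 4, RNAi 6, control 1, control 2 or control 3 (up to 0.0924). Cox7b was lost without RNAi 4, RNAi 6, control 1, control 2 or control 5, with quantile normalisation and with voom (up to 0.0912). Uqcrfs1 was lost without RNAi 3, RNAi 4, RNAi 6 or any of controls 1 to 4, with quantile normalisation and with edgeR (up to 0.0865). Without control 2, limma called 6 nuclear genes, all lower, and 1730 of all 16417 genes, 1213 of them lower. Without control 5 it called 15 nuclear genes, 13 of them lower, and 3578 of all genes, 2275 of them lower. The oocyte markers summed to 29787 to 43721 in RNAi embryos and 6805 to 12545 in controls, with 4 of 10 higher, none lower and none at 0 in all libraries, and the 2-cell markers summed to 363 to 1379 in RNAi embryos and 1312 to 3110 in controls, with 7 of 10 lower. These 2-cell markers include Zscan4c, Zscan4d and Zscan4f. Cumulus or granulosa markers summed to 15.6 to 82.4 in RNAi embryos and 105 to 156 in controls, with 5 of 14 (Amh, Inha, Inhba, Has2 and Krt19) at 0 in all libraries and 1, Amhr2, lower. Their part in the result was not tested.

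The promoters of these genes are shown because nuclear genes of this pathway are known for words bound by NRF1, by ETS factors such as GABP, and by YY1. RefSeq windows (GRCm38.p6) from 250 bases before to 50 after the start were found for 74 of 98 nuclear members, in 79 windows. The letters CATGCGC of NRF1, on either strand, stood in 19.0% of the member windows and 3.91% of all 32851 windows. The letters CCGGAAG of the ETS family stood in 22.8% of member windows and 8.86% of all. The letters AAGATGG of YY1 stood in 13.9% of member windows and 6.34% of all. Of the 7 windows of genes that fell in RNAi embryos, each word stood in 1, and these 3 windows are printed 5′ to 3′ with the word in capitals. In Ndufaf5 the NRF1 letters run on both strands and overlap.
Ndufaf5, chr2:140170396-140170695, plus strand: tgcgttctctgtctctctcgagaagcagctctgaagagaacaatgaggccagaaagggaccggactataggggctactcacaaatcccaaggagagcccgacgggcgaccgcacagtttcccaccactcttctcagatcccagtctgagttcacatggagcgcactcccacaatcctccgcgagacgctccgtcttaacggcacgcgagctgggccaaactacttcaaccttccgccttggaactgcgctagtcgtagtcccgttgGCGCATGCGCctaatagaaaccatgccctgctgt
Ndufs8, chr19:3912725-3913024, minus strand: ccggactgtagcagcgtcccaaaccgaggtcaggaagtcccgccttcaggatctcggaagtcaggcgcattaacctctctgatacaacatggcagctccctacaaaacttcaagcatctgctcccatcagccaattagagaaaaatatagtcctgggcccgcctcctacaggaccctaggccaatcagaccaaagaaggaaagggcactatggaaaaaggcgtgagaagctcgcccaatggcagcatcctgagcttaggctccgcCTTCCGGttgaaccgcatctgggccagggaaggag
Cox7c, chr13:86046746-86047045, minus strand: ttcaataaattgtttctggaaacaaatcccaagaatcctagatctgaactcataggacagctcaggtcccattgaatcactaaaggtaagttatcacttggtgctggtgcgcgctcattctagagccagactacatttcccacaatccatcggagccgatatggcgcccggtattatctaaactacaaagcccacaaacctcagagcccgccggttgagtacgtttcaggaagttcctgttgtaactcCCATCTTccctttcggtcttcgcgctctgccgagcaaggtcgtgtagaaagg
A match describes letters in these windows and is no site.

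The mitochondrial mRNAs differed widely among embryo libraries within each group. mt-Cytb, the most abundant, had 7671 to 22218 normalised reads in RNAi embryos (median 14501) and 23181, 21273, 16740, 18228 and 5345 in controls (log2 fold change -0.09, SE 0.38, adjusted p = 0.888, limma). mt-Co1 had 3166 to 10062 in RNAi embryos (median 5875) and 7485, 6291, 5061, 5649 and 2669 in controls (0.22, SE 0.33, adjusted p = 0.685, limma). mt-Nd1 had 3476 to 8803 in RNAi embryos (median 5223) and 7516, 6995, 7306, 6399 and 2594 in controls (-0.15, SE 0.33, adjusted p = 0.793, limma). The groups overlapped for all 13, and control 5 was the lowest of the controls for all 13. The largest log2 fold changes were those of mt-Nd5 (0.47, SE 0.33, adjusted p = 0.335, limma), with 1276 to 3353 in RNAi embryos (median 2098) and 848 to 1936 in controls, and mt-Nd6 (0.41, SE 0.34, adjusted p = 0.426, limma), with 221 to 642 in RNAi embryos (median 444) and 162 to 463 in controls.

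The other 8 had log2 fold changes from -0.16 (mt-Atp8) to 0.31 (mt-Nd4l). Of complex I, mt-Nd2 averaged 2040 ± 783 in RNAi and 1843 ± 551 in control embryos, mt-Nd4 2584 ± 1098 in RNAi and 2393 ± 923 in control embryos (SD, n = 6 and 5). mt-Nd3 averaged 33.9 ± 15.5 in RNAi and 29.0 ± 7.16 in control embryos, and mt-Nd4l 88.5 ± 34.8 in RNAi and 71.8 ± 27.01 in control embryos. Of complex IV, mt-Co2 averaged 315 ± 132 in RNAi and 305 ± 90.6 in control embryos, and mt-Co3 253 ± 113 in RNAi and 219 ± 89.1 in control embryos. Of complex V, mt-Atp6 averaged 716 ± 296 in RNAi and 779 ± 262 in control embryos, and mt-Atp8 355 ± 135 in RNAi and 402 ± 142 in control embryos. Nuclear copies limit several of these values too. Gm28438, the copy of mt-Nd3, averaged 283 in RNAi and 289 in control embryos, and Gm10222, the copy of mt-Nd4l, 221 in RNAi and 202 in control embryos. Copies of mt-Co2, mt-Co3 and mt-Atp6 also averaged more than their partners, and those of mt-Co1 and mt-Nd4 less. The SE of the log2 fold change was 0.30 to 0.40 over the 13, which limits the size of change detectable here.

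The make-up of the mitochondrial mRNA reads overlapped as well. mt-Cytb held 39.5% to 45.2% in RNAi and 36.9% to 48.3% in control embryos, mt-Nd1 13.6% to 17.9% in RNAi and 15.4% to 19.8% in control embryos, and mt-Co1 15.9% to 18.8% in RNAi and 13.7% to 18.4% in control embryos. This held for the shares of all 13. The log2 ratio of summed mitochondrial to summed nuclear values was 2.78 ± 0.61 in RNAi and 2.66 ± 0.58 in control embryos (SD, n = 6 and 5), a difference of 0.12 that is smaller than the spread in either group. The lowest ratio, 3.44 on the linear scale, was that of control 5.

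**Figure D5:**
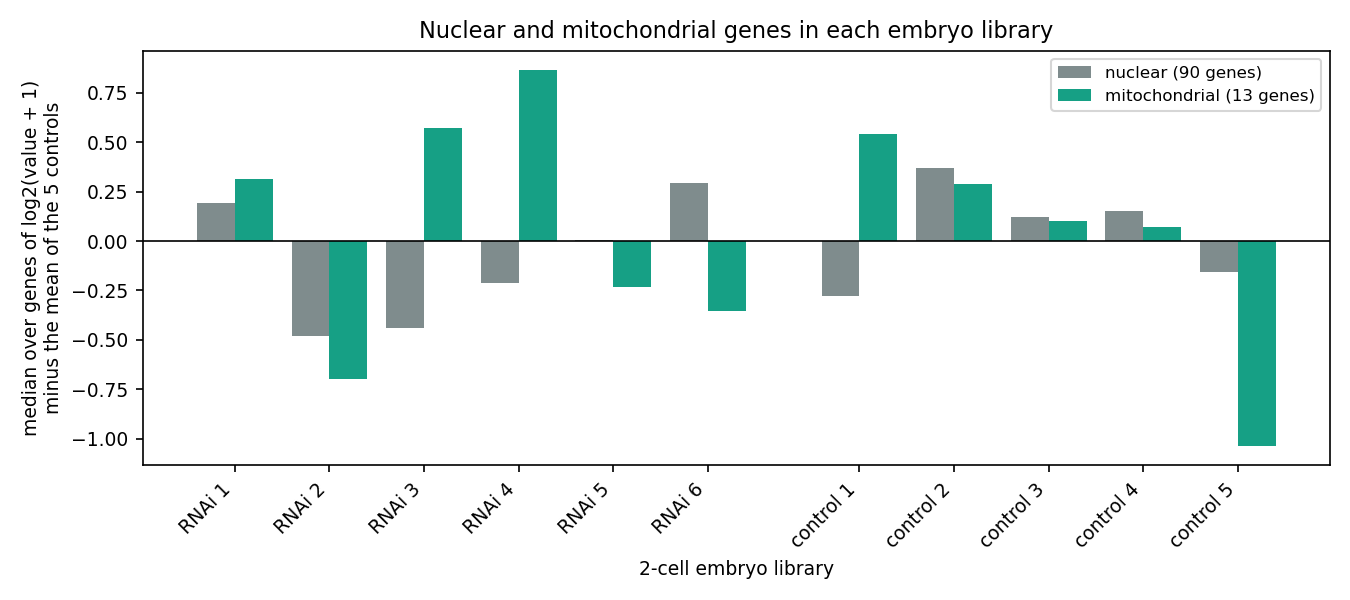
Median over genes of log2(value + 1) minus the mean of the 5 controls, for 90 nuclear and 13 mitochondrial genes in each embryo library, with RNAi libraries left of the controls. Mitochondrial medians run from -0.70 to 0.87 in RNAi libraries and from -1.04 (control 5) to 0.54 in controls, and nuclear medians from -0.48 to 0.30 and from -0.28 to 0.37.

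Genes that serve the complexes were counted in the embryo fit too, where 18.2% of all genes tested were called, 12.0% lower and 6.13% higher. Of 57 assembly factors and carriers, 3 rose and 5 fell: Cox18, which inserts mt-Co2 protein into the membrane, had 28.7 to 120 in RNAi embryos (median 71.5) and 12.5 to 31.3 in controls (log2 fold change 1.72, adjusted p = 0.00925, limma), and Coa7 had 0 to 14.8 in RNAi embryos (median 3.56) and 16.6 to 60.9 in controls (-3.21, adjusted p = 0.00419, limma). Of 21 genes of mitochondrial DNA maintenance and transcription, 2 fell, among them Polrmt, the mitochondrial RNA polymerase, with 0 to 8.20 in RNAi embryos (median 1.68) and 16.6 to 37.6 in controls (-3.17, adjusted p = 0.00419, limma). Of 21 genes of mitochondrial RNA processing, 2 rose and 3 fell. Mtpap, the mitochondrial poly(A) polymerase, had 50.02 to 139 in RNAi embryos (median 84.6) and 8.85 to 42.8 in controls, and Tbrg4 had 6.52 to 27.05 in RNAi embryos (median 18.4) and 36.2 to 103 in controls.

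Of 18 regulators of mitochondrial biogenesis, 5 fell and none rose, and Gabpa, the DNA-binding subunit of GABP, had 11.6 to 186 in RNAi embryos (median 54.7) and 465, 519, 622, 487 and 109 in controls (log2 fold change -2.80, SE 0.57, adjusted p = 0.00419, limma). Of 26 genes of the tricarboxylic acid cycle and pyruvate entry, 2 rose and 8 fell. Idh3g, a subunit of isocitrate dehydrogenase, had 4.34 to 32.8 in RNAi embryos (median 17.2) and 84.9 to 203 in controls (-3.00, adjusted p = 0.00155, limma), and Pdhx had 87.4 to 261 in RNAi embryos (median 150) and 60.5 to 109 in controls (0.99, adjusted p = 0.0363, limma). These counts too are to be read against the 12.0% of all genes tested that were lower and the 6.13% that were higher. Both mitochondrial ribosomal RNAs were without a call.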

How the data were processed

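The tools were Trimmomatic, HISAT2 and featureCounts, and the build mm10, per the submitters' processing notes. Their versions, the annotation, the strand setting and how reads that fit several genes were counted were not given in the sources used. The labels call the molecule genomic DNA and name a transposase-based DNA kit, while the titles say RNA-Seq. The authors deposited 1 table of normalised signal for ESCs and 1 for embryos, each value being a read count divided by a library's factor, since 100% of values are whole multiples of 1 read (within 0.01 of a read). In the embryo table the control columns carry numbers that differ from the labels, so numbers only name libraries there. Depth limits low genes: 1 read is worth 0.912 to 1.19 normalised reads in ESCs and 0.687 to 1.39 in embryos.

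Each table was fitted on its own with limma 3.58.1 (R 4.3.3) with a trend on log2(value + 1), for genes that reached 1 normalised read in 2 or more ESC or 5 or more embryo libraries, and p-values were adjusted by Benjamini-Hochberg over all genes tested, with a threshold of 0.05. The log2 fold changes carry that pseudocount and so understate changes of low genes. Alternatives on the recovered reads used edgeR 4.0.16, DESeq2 1.42.0 and voom with quality weights. The others were a pseudocount of 0.5, no filter, quantile normalisation, scaling to non-mitochondrial reads, a replicate block and leaving out each library. The scripts were tested on simulated data. Shared 50-base stretches, exon lengths and loci came from GENCODE vM21, and promoters from RefSeq.

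Members and lists were chosen with earlier results of these data known. Named genes were all mitochondrial mRNAs, per complex the 2 called genes with the smallest p in each direction and the gene with the highest mean, calls against their group's majority, tissue-type paralogs, and per other list the smallest p in each direction. Ndufa5, Ndufaf4, Ndufaf7, Sdhb and Sdhc in ESCs, Ndufaf2, Ndufb4c, Cox6c2 and the nuclear copies were named after their values were seen. The values of 1 complex I subunit are not reported here, although it stays in the counts. Same-numbered ESC libraries did not deviate together (correlation of deviations -0.01). This cannot exclude a pairing, since the controls differed little from each other, and the labels do not say whether the numbers pair them.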

Additional observations from a re-analysis of the deposited data

Results flagged for a closer look

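In 82 groups of 5 or 6 embryo libraries, 1 per named gene and group, 9 had a library far from the others by Dixon's test at its 95% critical value; chance alone flags about 1 in 20 groups. Among the RNAi embryos, RNAi 4 was highest for Ndufa10, with 164 normalised reads, and for Uqcrh, with 124. RNAi 6 was highest for Cox6b2, with 433, and for Ndufa4, with 408.

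Among the control embryos, control 5 was lowest for mt-Nd1, with 2594 normalised reads, and highest for Atp5g2, with 43.0. Control 4 was highest for Cox4i1, with 241, and for Cox4i2, with 38.6. Control 1 was lowest for Ndufa4, with 82.2.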

How the results depend on the processing

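With 2 libraries a group, the ESC counts turned on single libraries, over all genes as well as among these members. Fits with a library left out hold a group of 1 library. Their counts therefore show nothing particular to these members. With a library left out, nuclear calls ran from 0 to 62 (2 to 74 with the filter applied afresh, 57 without OE 2) and mitochondrial calls from 0 to 10 (6 to 12 with the filter applied afresh), against 2 and 8 with all 4. Nuclear calls were 4 with DESeq2 and 4 with voom with quality weights, both on all 4 libraries. Over all genes, DESeq2 called 5261 of 25826 and voom with quality weights 3767 of 16335. Of the named calls in embryos, 6 of 11 were kept in all 18 alternatives. For ESCs no such count is given, because the alternatives with a library left out hold a group of 1 library. In embryos, nuclear calls were 21 with voom with quality weights, which called 3554 of 9453 genes. They were 6 to 17 with a library left out, where 1730 to 3578 of 16417 genes were called. Quantile normalisation called 1 mitochondrial mRNA in embryos, mt-Nd1, lower (adjusted p = 0.0395, limma). The cause was not tested. The ESC mitochondrial-to-nuclear difference on the log2 scale was 1.06 with mean logs, 0.47 per kb, 1.36 without mt-Co1 and 1.29 with the low-sharing mRNAs, and 0.24 to 0.32 with a library left out; the embryo one was -0.10 to 0.31.

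Direction turned for some uncalled ESC genes when an OE library was left out. With a library left out, the log2 fold change ran from -0.46 to 0.98 for mt-Nd6, -0.26 to 0.41 for Uqcrc1, -0.33 to 0.41 for Cox4i1, -0.47 to 0.66 for Cox6a1 and -0.23 to 0.91 for Atp5g1, lowest without OE 2, and it was -0.53 for mt-Atp6 without OE 2 and with the filter applied afresh. It ran from -0.29 to 0.29 for Cox7b and -0.52 to 0.28 for Cox8a, highest without OE 1, and with the filter applied afresh was 0.11 without OE 1 for Atp5b. The ratios without mt-Co1 and with low-sharing mRNAs, and the fits with the filter applied afresh, were chosen after seeing the data.

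With the replicate block in ESCs, limma called 5 nuclear and 8 mitochondrial members, and 6024 of 20888 genes. The labels do not say whether the shared number is a pairing. No paired analysis was possible in embryos because the control columns carry no label number.

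At this depth, nuclear genes of a few reads per embryo library can show only large differences.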
